A study of Mus musculus with 6 samples.

Results

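Slc1a4 and 7 genes downstream of or belonging to the stress factor ATF4 were examined in mouse liver under a high-fat and a low-fat diet. The genes are Slc1a4, Atf4, Atf3, Ddit3, Asns, Psat1, Slc3a2 and Slc7a5, and every probe set whose only gene symbol in the platform annotation was one of these was taken. This gave 11 probe sets for 8 genes, of 12488 probe sets on the array and 8251 genes with a probe set of their own. Slc1a4 was chosen by measured values, namely its higher intensity on the high-fat diet in these same arrays, so its difference is given as a description with no p-value. The other 7 genes were chosen for their function in the amino acid response, with the question of whether they rose along with Slc1a4.

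The study measured liver RNA of C57BL/6 mice, an inbred laboratory strain, on 6 Affymetrix arrays. Of these, 3 came from mice kept for 12 weeks on a Western-style diet rich in fat and 3 from mice kept for 12 weeks on a low-fat diet. The labels give no genotype other than the strain name in either group, and neither the sex, the age nor the number of mice behind an array. The p-values reflect only how far these arrays spread, which may be technical. Whole liver was used, so fewer cells of a type and less RNA per cell cannot be told apart.

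ATF4 is a transcription factor whose protein is made when the initiation factor eIF2 is phosphorylated, as happens when amino acids run short or when unfolded proteins build up in the endoplasmic reticulum. It raises transcription of genes for amino acid uptake and synthesis, for tRNA charging and, under lasting stress, for Ddit3 (CHOP), and it acts through a composite DNA element that it shares with C/EBP factors. In liver this programme answers a diet that lacks an essential amino acid, and phosphorylation of eIF2 can raise ATF4 protein without a change in its mRNA.

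The promoters were searched for the core of that element, TGATGNAA, on both strands, because ATF4 acts through it. RefSeq promoter sequences of assembly GRCm38.p6, from 250 bases before to 50 bases after a transcription start, were found for 7 of the 8 genes, in 8 windows, with none matched for Slc7a5. The core was present in the windows of Slc1a4, Atf3 and Asns, which is 3 of 7 genes (42.9%), against 4.51% of the 27025 genes with such a window. The members were chosen as ATF4-related genes and the core because ATF4 acts through it, so the choice itself favours a higher share. The core was not found in the windows of Atf4, Ddit3, Psat1 and Slc3a2, and sequence beyond the windows was not searched. The 3 stretches are printed 5′ to 3′ on the gene's own strand with the match in capitals, so that the element in Slc1a4 can be set beside those of its fellow members. The stretch of Slc1a4 runs from base -96 to base 4 relative to the start, at chr11:20332710-20332809 on the minus strand. That of Atf3 runs from -150 to -51, at chr1:191183384-191183483 on the minus strand. That of Asns runs from -100 to -1, at chr6:7693210-7693309 on the minus strand.
Slc1a4: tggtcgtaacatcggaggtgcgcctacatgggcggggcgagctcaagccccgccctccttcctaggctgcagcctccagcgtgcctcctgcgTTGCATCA
Atf3: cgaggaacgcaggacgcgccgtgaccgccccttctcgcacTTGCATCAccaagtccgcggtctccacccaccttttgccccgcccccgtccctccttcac
Asns: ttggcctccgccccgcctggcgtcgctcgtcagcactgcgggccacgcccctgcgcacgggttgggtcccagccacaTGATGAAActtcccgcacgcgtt
Slc1a4 and Atf3 carried the same 8 bases, the reverse complement of TGATGCAA, across the start site in Slc1a4 and from base -110 to -103 in Atf3. Asns carried the gene-strand form with A in place of the variable base, from -23 to -16. A match is a description of the letters and not evidence that a factor bound there.

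Slc1a4 was 4.69-fold higher on the high-fat diet, and none of the 6 other measured genes showed a rise of that size. The brightest Atf3 probe set was at 0.27 and the brighter Asns probe set at 0.02 on the log2 scale. The intervals of this pair ended at 1.76-fold and 1.46-fold on the upper side, so smaller rises were not excluded. The dimmer tested probe sets of Atf3 and Asns were at -0.56 and 0.13. Atf4 itself, Ddit3, Slc3a2 and Slc7a5 had log2 changes from -0.26 to -0.09, and none of the tested probe sets of the 6 genes passed the test. Slc1a4 encodes ASCT1, an exchanger of alanine, serine, cysteine and threonine. Its intensity was 439, 590 and 727 on high-fat arrays 1, 2 and 3, and 140, 55.0 and 190 on low-fat arrays 1, 2 and 3. All 3 high-fat values were above all 3 low-fat values. The high-fat mean was 585 ± 144 (SD, n = 3), and the low-fat mean was 128 ± 68.1 (SD, n = 3). Low-fat array 2 lay under the floor of 68.9, the pooled 30th percentile of all intensities, to which lower values were raised before log2 was taken. On that floored scale the log2 change, high-fat minus low-fat, was 2.23 ± 0.38 (SE), which is 4.69-fold. By size of change in either direction it stood 14th among 8950 tested probe sets, a place that its selection favours. Without low-fat array 2 the log2 change was 1.81. Slc1a4 is read by a single probe set, so no other probe set of the gene could be set beside it.

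**Figure D1:**
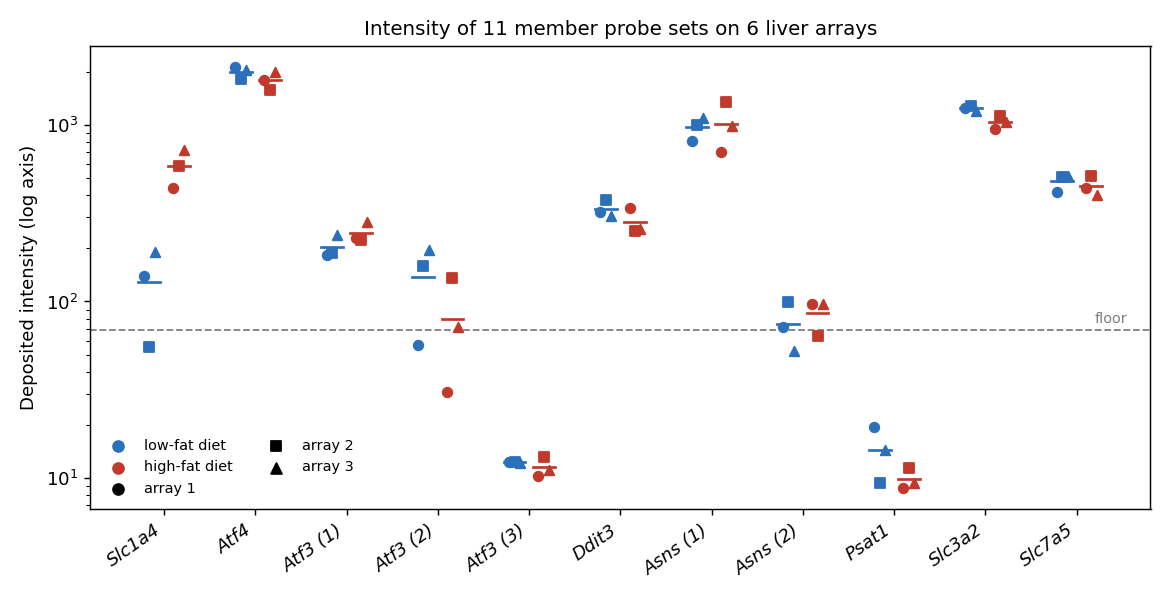
Deposited intensity (log axis) of the 11 member probe sets on each of 6 liver arrays, 3 on a low-fat diet (blue) and 3 on a high-fat diet (red); short lines are group means, marker shapes are array numbers, numbers in brackets tell probe sets of 1 gene apart, and the dashed line is the floor of 68.9. Slc1a4 is the single member whose high-fat points, from 439 to 727, all lie above its low-fat points, from 55.0 to 190, while Psat1 and the third Atf3 probe set lie under the floor throughout.

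Of the 11 member probe sets, 9 passed the filter, which asked for at least 3 of 6 arrays above the floor, and these covered 7 genes. Among the 8 tested probe sets of the genes other than Slc1a4, 0 reached an adjusted p under 0.05 in limma and 0 an unadjusted p under 0.05. Over all tested probe sets, 0.827% passed the adjusted threshold, so a count of 0 among 8 is near the background. Their log2 changes ran from -0.56 to 0.27 with a median of -0.13, against a median of 0.00 over all tested probe sets.

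The transcription factors came first in the pathway and showed small differences. Atf4 read 1803, 1589 and 2004 under the high-fat diet, against 2137, 1838 and 2066 under the low-fat diet. The ranges overlapped, and the lowest value was that of high-fat array 2. Limma gave a log2 change of -0.17 ± 0.13 (SE), adjusted p = 0.805, with a 95% interval from -0.46 to 0.13 that ends at 1.09-fold on the upper side. Ddit3 encodes CHOP, the ATF4 target tied to cell death under lasting stress. Its intensity was 338, 251 and 259 on the high-fat arrays and 321, 377 and 307 on the low-fat arrays. High-fat array 1 lay within the low-fat range and the other high-fat arrays lay below it. The log2 change was -0.25 ± 0.22 (SE), adjusted p = 0.833 in limma, with an interval that ends at 1.18-fold on the upper side.

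Atf3, a stress-induced repressor of the same bZIP family, had 3 probe sets, and they did not give 1 answer. The brightest read 230, 224 and 284 on the high-fat arrays and 184, 188 and 239 on the low-fat arrays, with overlap only through low-fat array 3. Its log2 change was 0.27 ± 0.24 (SE), adjusted p = 0.833 in limma. The next read 30.5, 135 and 72.0 against 56.9, 159 and 196, and the array of lowest value in each diet was number 1. Its log2 change had the opposite sign, -0.56 ± 0.43 (SE), adjusted p = 0.803 in limma. The remaining probe set lay between 10.3 and 13.2 on all 6 arrays, below the floor, and was not tested. The annotation suffix of the brightest marks probes that may be shared within a gene family, and that of the other pair marks relaxed probe selection.

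Of the enzymes of amino acid synthesis among the members, Asns was measured and Psat1 was not. Asns makes asparagine from aspartate and glutamine and is among the most studied ATF4 targets. Its brighter probe set read 701, 1347 and 993 on the high-fat arrays and 815, 1008 and 1093 on the low-fat arrays. The lowest and the highest of the 6 values were both high-fat, on arrays 1 and 2. The log2 change was 0.02 ± 0.23 (SE), adjusted p = 0.994 in limma, with a 95% interval from -0.50 to 0.54. Leaving out high-fat array 2 turned it to -0.21, and leaving out low-fat array 1 to -0.10. High-fat array 2 also had the highest summed intensity of 6 pancreatic acinar markers, 12540 against 2241 to 4429 on the other high-fat arrays and 2238 to 7209 on the low-fat arrays, and acinar cells are rich in Asns. On the low-fat diet the marker sum was highest on array 2 and Asns on array 3. The part of these markers in the Asns values was not tested. The dimmer Asns probe set, with 4 of 6 arrays above the floor, had a log2 change of 0.13 ± 0.27 (SE), adjusted p = 0.951 in limma. Psat1, the aminotransferase of serine synthesis, lay between 8.8 and 19.5 on all arrays, under the floor, so its change was not measurable here.

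The remaining members form the CD98 transporter, in which Slc3a2 is the heavy chain that carries the light chain Slc7a5 (LAT1) to the membrane for uptake of large neutral amino acids. Slc3a2 read 950, 1132 and 1040 under the high-fat diet, against 1246, 1290 and 1204 under the low-fat diet. All 3 high-fat values lay below all 3 low-fat values, and such a lack of overlap, in either direction, was seen in 14.1% of all tested probe sets. The means were 1041 ± 91.1 (SD, n = 3) and 1247 ± 43.1 (SD, n = 3). The log2 change was -0.26 ± 0.12 (SE), opposite in sign to that of Slc1a4, and did not pass limma's test (adjusted p = 0.590, 95% interval from -0.54 to 0.02). Slc7a5 read 440, 513 and 404 on the high-fat arrays and 420, 509 and 512 on the low-fat arrays. Its ranges overlapped almost wholly, and the log2 change was -0.09 ± 0.18 (SE), adjusted p = 0.952 in limma, with an interval that ends at 1.25-fold on the upper side.

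**Figure D2:**
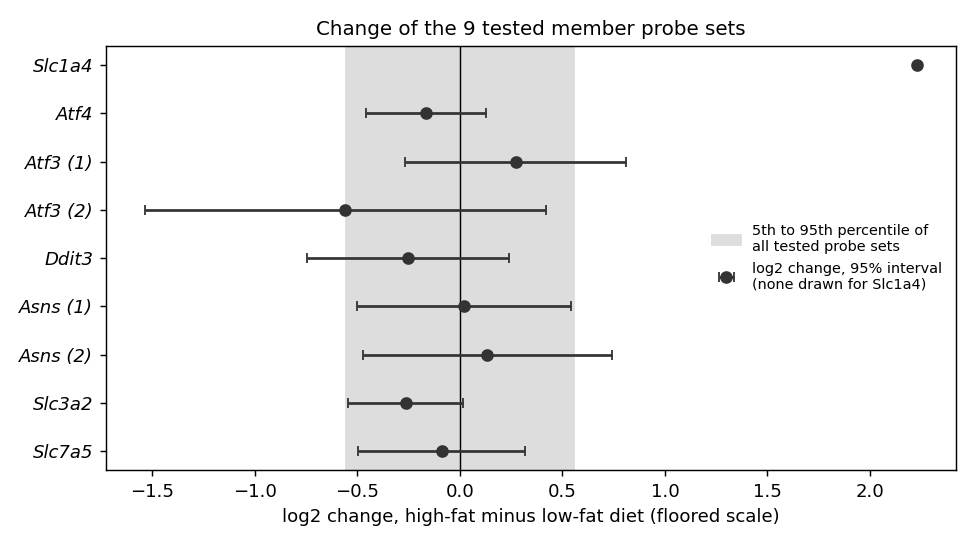
Log2 change, high-fat minus low-fat diet, of the 9 tested member probe sets with limma's 95% interval, drawn for all but Slc1a4, which was chosen on this contrast; the grey band is the 5th to 95th percentile of all 8950 tested probe sets, from -0.56 to 0.56. Slc1a4 lies at 2.23 while the 8 other probe sets lie between -0.56 and 0.27, each with an interval that spans 0.

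The upper end of the interval was 1.01-fold for Slc3a2, 1.09-fold for Atf4, 1.18-fold for Ddit3, 1.25-fold for Slc7a5, 1.46-fold for the brighter Asns probe set and 1.76-fold for the brightest Atf3 probe set. A p that misses the threshold does not show that a level was equal.

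The wider pathway was read through 6 lists with 123 genes, of which 94 had a probe set of their own and 81 were tested, each by its brightest probe set. In all, 1 of the 81 rose, 0 fell and 80 did not pass limma's test, and 0.915% of all 6557 tested genes passed. An unadjusted p under 0.05 was reached by 15 of the 81, 9 of them higher and 6 lower, against 9.50% of all tested genes. The median log2 change over the 81 was 0.05, against 0.01 over all tested genes.

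Among further transcription factors and regulators of the stress response, 0 of 15 tested genes passed limma's threshold, 1 was higher and 1 lower at an unadjusted p under 0.05, and the median log2 change was 0.03. Over all tested genes, 9.50% had an unadjusted p under 0.05 in limma, and the median was 0.01. Atf5 encodes a bZIP factor whose translation is controlled in the same way as that of ATF4. It read 3414, 3151 and 1955 on the high-fat arrays and 1761, 1332 and 741 on the low-fat arrays, without overlap. On the log2 scale Atf5 was 1.20 ± 0.31 (SE) higher, adjusted p = 0.206 in limma. Trib3 encodes a pseudokinase that ATF4 induces and that restrains ATF4 in turn. It read 186, 89.7 and 148 against 313, 241 and 220, lower without overlap, and limma gave -0.92 ± 0.32 (SE) on the log2 scale (adjusted p = 0.394). The genes around eIF2, its kinases, subunits, exchange factor and phosphatase subunits, had 0 of 13 past limma's threshold and 0 at an unadjusted p under 0.05, with a median of -0.08. The smallest p-values were those of the phosphatase subunit Ppp1r15b, at -0.25 ± 0.23 (SE), and the exchange factor subunit Eif2b5, at 0.30 ± 0.28 (SE) on the log2 scale. The adjusted p-values were 0.843 and 0.845 in limma.

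Of the other amino acid transporters, 17 were on the array and 10 were tested. Among these 10, 0 passed limma's threshold and 8 had a log2 change below 0, opposite in sign to Slc1a4, with Slc6a9 at -0.03. Over all 6557 tested genes, 3194 lay below 0. The median was -0.24, against 0.01 over all tested genes. An unadjusted p under 0.05 in limma was reached by 3, all lower, against 9.50% of all tested genes in either direction. Slc7a2, a cationic amino acid transporter of liver, read 827, 563 and 1186 on the high-fat and 1839, 1640 and 2316 on the low-fat arrays. The change was -1.22 ± 0.25 (SE) on the log2 scale, adjusted p = 0.0784 in limma. Slc38a2 (SNAT2), which carries small neutral amino acids and is itself an ATF4 target, read 347, 337 and 542 against 562, 925 and 1287. Its log2 change was -1.13 ± 0.31 (SE), adjusted p = 0.232 in limma. In both genes every high-fat value was below every low-fat value; over the list this held for 3 of 10, against 14.5% of all tested genes. Slc1a5 (ASCT2), the nearest relative of Slc1a4 and named here outside the fixed rule after its values were seen, read 175, 119 and 55.3 against 119, 94.3 and 256, with overlap and a log2 change of -0.33 ± 0.45 (SE).

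Enzymes that supply serine, glycine, asparagine and one-carbon units beyond Asns and Psat1 had small log2 changes. Intervals could be wide, and that of Mthfd2 reached 1.02 on the log2 scale at its upper end. Of 7 tested genes, 0 passed limma's threshold, 0 had an unadjusted p under 0.05, 6 had a log2 change above 0, and the range was -0.05 to 0.31. The phosphoserine phosphatase gene Psph was at 0.21 ± 0.20 (SE), and the mitochondrial folate enzyme gene Mthfd2 at 0.28 ± 0.33 (SE). Of 20 tested aminoacyl-tRNA synthetase and scaffold genes, which charge tRNAs and include many ATF4 targets, 0 passed limma's threshold, 15 had a log2 change above 0, and the median was 0.08. An unadjusted p under 0.05 in limma was reached by 3 that were higher and 1 that was lower, against 9.50% of all tested genes. A log2 change above 0 was seen in 3363 of all 6557 tested genes. The cysteine enzyme gene Cars read 314, 362 and 246 on the high-fat arrays and 83.6, 211 and 55.7 on the low-fat arrays, without overlap and with low-fat array 3 under the floor. The log2 change of Cars was 1.51 ± 0.41 (SE), adjusted p = 0.238 in limma. The threonine enzyme gene Tars was at 0.61 ± 0.18 (SE), adjusted p = 0.282 in limma. In 6 of the 20 the diets showed no overlap, 5 higher and 1 lower, against 14.5% of all tested genes.

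The ATF6 and XBP1 arms of the unfolded protein response, named for factors other than ATF4, raise chaperones of the endoplasmic reticulum. A place in this list does not mean that a gene is free of control by ATF4. Of 16 tested targets, 1 rose and 15 did not pass limma's test, 11 had a log2 change above 0, and the median was 0.19. Over all 6557 tested genes, 3363 lay above 0 and the median was 0.01. Creld2, a folding factor of the endoplasmic reticulum, read 1130, 915 and 837 on the high-fat arrays and 493, 564 and 414 on the low-fat arrays. It rose by 0.97 ± 0.18 (SE) on the log2 scale, adjusted p = 0.0499 in limma, and this call was lost with any of the 6 arrays left out, at adjusted p-values from 0.0594 to 0.165. Herpud1, which helps to clear misfolded proteins and carries the TGATGNAA core in its promoter, lay the other way, at 3880, 3463 and 3085 against 4917, 6162 and 6149. Its log2 change was -0.72 ± 0.14 (SE), adjusted p = 0.0587 in limma. The main chaperone gene Hspa5 (BiP), named after its values were seen, was at 0.65 ± 0.13 (SE), adjusted p = 0.0718 in limma. An unadjusted p under 0.05 was reached by 5 genes that were higher and 1 that was lower, against 9.50% of all tested genes. In 6 of the 16 the diets showed no overlap, 5 higher and 1 lower, against 14.5% of all tested genes.

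**Figure D3:**
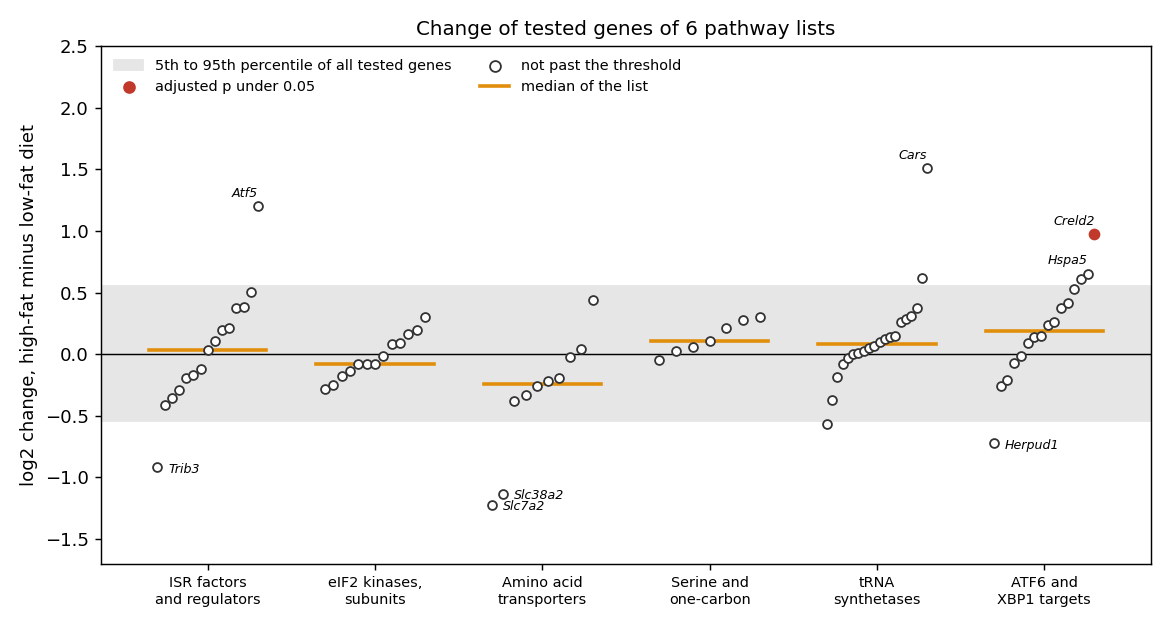
Log2 change, high-fat minus low-fat diet, of the tested genes of 6 pathway lists, 1 point a gene in order of size; the filled point passed an adjusted p of 0.05, orange lines are list medians, and the grey band is the 5th to 95th percentile of all 6557 tested genes, from -0.54 to 0.56. Creld2 is the single filled point, and the amino acid transporters have the lowest median, -0.24.

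Over the members and the 6 lists, 20 genes had the TGATGNAA core in a promoter window and 13 of these were tested. Without Slc1a4, 9 of the 12 had a log2 change above 0 and 3 below, 0 passed limma's threshold, and the values ran from -0.92 for Trib3 to 0.61 for Tars. Some were very small: Iars, Asns and Gars, among the 9, were at 0.01, 0.02 and 0.03, and Eif2s3x, among the 3, at -0.02. Over all 6557 tested genes, 3363 lay above 0. The median of the 12 was 0.07, against 0.00 for the 58 tested genes of the members and lists that had a window without the core. A further 17 tested genes had no window matched.

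The genes whose profile over the 6 arrays was nearest to that of Slc1a4 were not amino acid response genes of these lists. Likeness was the root mean square difference between log2 profiles, each centred on its mean, among 6556 other genes. The measure largely carries the diet contrast on which Slc1a4 was chosen, so it favours genes that rose strongly. The ranks of the members largely restate their small changes. The lists held 81 and the members 7 of 6557 tested genes, so their absence among 5 genes says little. In order of likeness the 5 nearest genes were Denn2b at 0.43, Gadd45g at 0.46, Lgalsl at 0.51, Arntl at 0.52 and Tubb2a at 0.53. Their log2 changes ran from 1.28 to 2.59. Gadd45g encodes a stress-induced regulator of growth arrest and Arntl the core clock factor BMAL1. Gadd45g, for example, read 353, 428 and 338 on the high-fat arrays and 125, 94.1 and 170 on the low-fat arrays. Low-fat array 2 was its lowest value, as it was for Slc1a4, which selection by likeness favours. Of the members, Atf3 came nearest, at rank 588 with a difference of 1.05, and Asns, Atf4, Slc7a5, Slc3a2 and Ddit3 followed at ranks 2800, 4048, 4082, 5180 and 5621.

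**Figure D4:**
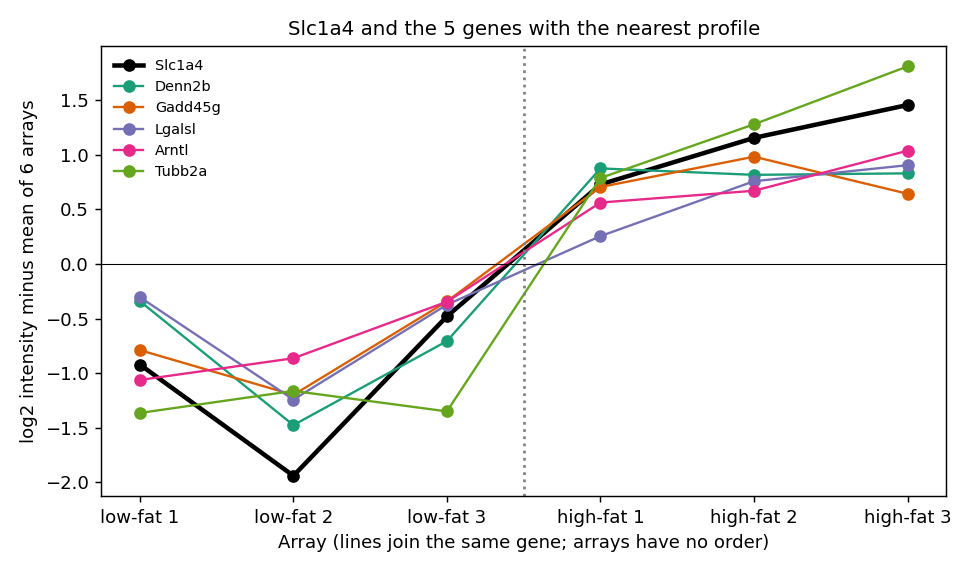
Log2 intensity minus the mean of 6 arrays for Slc1a4 (black) and the 5 genes with the nearest profile, on 3 low-fat and 3 high-fat arrays; values under the floor were raised to it. All 6 genes are higher on every high-fat array than on any low-fat array, and low-fat array 2 is the lowest point of Slc1a4, Denn2b, Gadd45g and Lgalsl. The 5 genes were picked for likeness to Slc1a4 on these same arrays, which favours such a shared pattern.

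All 11 hepatocyte markers on the array lay above the floor, with summed intensities from 179039 to 243340 over the arrays. Summed markers of macrophages, 14 of 14 above the floor on some array, ran from 11668 to 14859 on the high-fat and from 8933 to 11081 on the low-fat arrays. The sums were thus higher on the high-fat diet by a narrow margin. Of all tested genes taken singly, 14.5% lacked overlap, and no such share was taken for sums of genes. Of 13 tested macrophage markers, 0 passed limma's threshold, 12 had a log2 change above 0 and 1 below, while 3363 of all 6557 tested genes lay above 0. The part of these markers in the Slc1a4 difference was not tested. Sums for stellate, endothelial, lymphocyte, bile duct, acinar and erythroid markers overlapped between the diets, and the T cell genes Cd8a and Cd3d lay under the floor on every array. Array medians ran from 171 to 188, and the number of arrays limits the precision.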

How the data were processed

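The deposited table holds linear intensity values that the authors had already scaled, since the mean after trimming 2% at each end was 499.6 to 499.9 on all 6 arrays. Software, background correction and probe summary: not given in the sources used here. Diet and array number came from the sample titles. Genes were named from probe sets with a single symbol (10855; 396 had several and 1237 none listed), updated through RefSeq of GRCm38.p6. Values under the pooled 30th percentile, 68.9, were set to it and log2 was taken, which understates changes of dim genes. Probe sets with at least 3 of 6 arrays above the floor were tested, without 66 control probe sets, in limma 3.58.1 under R 4.3.3 (lmFit, eBayes with trend), two-sided, with Benjamini-Hochberg adjustment over all 8950. Intervals are 95% and not adjusted. The method was tested on simulated data with planted log2 changes of 2 up or down. Changes as small as those of the members other than Slc1a4 were not simulated. Members, lists, the promoter motif and tests were chosen with earlier results of these data known. Genes named are all members, up to 4 called genes of a list or its 2 smallest p-values, and the 5 nearest to Slc1a4.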

Additional observations from a re-analysis of the deposited data

How the results depend on the processing

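Slc1a4 was left out of the member counts because it was chosen on this contrast. None of the other members passed limma's threshold under any of the alternatives in which it was tested, up to 17 in number. The count of those called was 0 as reported and 0 under each of them. The log2 change of Slc1a4 was above 0 in all 16 alternatives that kept its probe set, from 1.64 with the floor at the 50th percentile to 2.54 without low-fat array 3. With an array left out, the change of the brighter Asns probe set ran from -0.21 (high-fat array 2 left out) to 0.26, and it was -0.10 with low-fat array 1 left out, while the other tested members kept their sign. The count of called pathway genes, 1 as reported, was 0 with median scaling, the 10th percentile floor, no filter or no trend, 3 with the 50th percentile floor (Creld2, Hspa5 and Herpud1), 2 with all 6 arrays required (Creld2 and Herpud1), and 0 to 1 with an array left out, where the 1 was Slc7a2 without high-fat array 3. With quantile normalization it was Hspa5 in place of Creld2. The count over all probe sets, 74, was 8 with no filter, 20 with no trend and 27 to 76 with an array left out: 28 with high-fat array 2 left out, and 31, 27 and 43 for low-fat arrays 1, 2 and 3.

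With the replicate number as a block, 103 probe sets were called. Of the members, with Slc1a4 not counted, 0 were called, and 4 pathway genes were (Atf5, Creld2, Slc38a2 and Slc7a2). The labels do not say that a number marks a shared litter or day. Deviations of same-numbered arrays correlated across probe sets at 0.07, 0.11 and 0.31 for numbers 1, 2 and 3. Of the 6 arrays, 4 were nearest to their own number. These values do not settle whether the numbers are a pairing. The main fit used no block because the labels name no pairing, and of the 4 pathway genes it called only Creld2.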
